A study of Bos taurus with 8 samples.

Results

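The miR-23, miR-27 and miR-24 miRNAs are encoded in a pair of paralogous clusters, and the 6 bovine entries listed under these names in the deposited tables were taken as their members. They were bta-miR-23a, bta-miR-23b-3p, bta-miR-27a-3p, bta-miR-27b, bta-miR-24-3p and bta-miR-24, found by their names in the tables. All 6 were among the 377 entries (of 565 listed) that had at least 10 reads in at least 1 library. The small RNA libraries came from rumen fluid of 4 non-lactating, rumen-cannulated Holstein cows, which had served as control animals of another study. Each cow was sampled on day 7 of a forage diet without concentrate (0%) and then on day 1 of a high-grain (HG) diet with 65% concentrate, 4 h after the morning feeding, which gave 4 libraries per diet. Between the diets the cows were adapted in steps over 1 week, and day 1 was the first day with 65% concentrate. All cows received the diets in this order, so that diet and time cannot be told apart. Equal library numbers on both diets were read as the same cow, from the labels and the design. The libraries held 1407364 to 4972752 reads in all, of which 300116 to 522804 were miRNA reads. HG replicate 2 stood apart from the other 7 libraries, and the differences of the abundant members between the diets are also given without it.

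A cluster of this kind is transcribed as 1 precursor, from which the hairpins of miR-23, miR-27 and miR-24 are cut out in turn. Each hairpin can give a mature miRNA from its 5p and from its 3p arm, and one arm usually dominates. The a and b forms of miR-23 and of miR-27 differ little in sequence, and miR-24-3p is the same in both clusters, so that sequencing reads cannot always be assigned to 1 locus. In mammals the a cluster is known from blood-forming cells, the vessel wall and many other tissues, and the b cluster lies in an intron of the aminopeptidase gene AOPEP.

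In the genome build UMD3.1, used by the deposited tables, bta-miR-23a lies at chr7:12982014-12982035 and bta-miR-27a-3p at chr7:12981844-12981863, both on the minus strand. For hairpins on that strand the tables place the 5p arm at the lower coordinate in 28 of 28 arm pairs, as on the plus strand (46 of 46), so the place of an arm within a minus-strand hairpin is uncertain. The b cluster lies on the plus strand of chromosome 8 and spans 790 bp, with bta-miR-23b-3p at chr8:83009652-83009674, bta-miR-27b at chr8:83009883-83009903, bta-miR-24 at chr8:83010382-83010404 and bta-miR-24-3p at chr8:83010420-83010441. Bta-miR-24 is therefore not a paralogue of bta-miR-24-3p, but the 5p arm of the same hairpin, mir-24-1. In ARS-UCD2.0, another assembly, whose gene table served here only to name genes and their neighbours, MIR23A, MIR27A and MIR24-2 lie next to each other between NANOS3 and ZSWIM4 and inside the protein-coding gene LOC132345691, and MIR23B, MIR27B and MIR24-1 lie inside AOPEP. Bta-miR-24-3p was listed at the b cluster only, and its reads could stem from either cluster.

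All members except bta-miR-24 belonged to the abundant miRNAs of rumen fluid. With each read counted in full at every entry it mapped to, bta-miR-24-3p had 99862 reads over the 8 libraries and ranked 7 among the 268 bovine entries, bta-miR-27b had 67329 (rank 12), bta-miR-27a-3p 31195 (rank 23), bta-miR-23a 30845 (rank 24) and bta-miR-23b-3p 14680 (rank 41). Bta-miR-24 had 93 reads and ranked 228. The order bta-miR-24-3p, bta-miR-27b, bta-miR-23b-3p and bta-miR-24 was found in all 8 libraries. Bta-miR-23a and bta-miR-27a-3p, which stood between bta-miR-27b and bta-miR-23b-3p, changed places from library to library, with bta-miR-23a first in forage replicates 1, 3 and 4 and in HG replicate 3. All of these are levels in reads, and since adapters are ligated to different miRNAs with different efficiency, ratios between members compare reads and not molecules.

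When every read was counted once within a family, with the reads shared by its a and b form estimated as described further on, miR-27 (97238 reads over the 8 libraries) and miR-24-3p (99862) were close to each other and miR-23 (44358) was lower. The ratio of miR-27 to miR-24-3p reads was 0.928, 0.989, 0.928 and 0.965 in forage replicates 1 to 4, and 0.959, 1.11, 0.912 and 1.003 in HG replicates 1 to 4. MiR-27 exceeded miR-24-3p in 2 of the 8 libraries, HG replicates 2 and 4. The ratio of miR-23 to miR-24-3p reads was 0.429 to 0.459 in the other 7 libraries and 0.421 in HG replicate 2.

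The a and b paralogues were unequal in opposite directions in both families: for miR-23 the a form had more reads, for miR-27 the b form. Bta-miR-23a took 69.6%, 69.03%, 68.5% and 68.7% of the reads of its pair in forage replicates 1 to 4, and 67.6%, 62.3%, 67.7% and 67.6% in HG replicates 1 to 4. The 95% Wilson interval of HG replicate 2, 61.0 to 63.6%, overlapped with that of no other library. Such intervals hold the counting error alone and leave out the spread between cows and libraries. Copies made by amplification count as separate reads, so the intervals can be too narrow even for that error. Bta-miR-27a-3p took 31.8%, 32.2%, 31.4% and 31.2% of the reads of its pair in forage replicates 1 to 4, and 32.5%, 30.3%, 31.4% and 32.7% in HG replicates 1 to 4. The a form of miR-23 thus led in 8 of 8 libraries and the b form of miR-27 likewise, by 1.65 to 2.29 reads of bta-miR-23a for each read of bta-miR-23b-3p and by 2.05 to 2.30 reads of bta-miR-27b for each read of bta-miR-27a-3p.

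**Figure D1:**
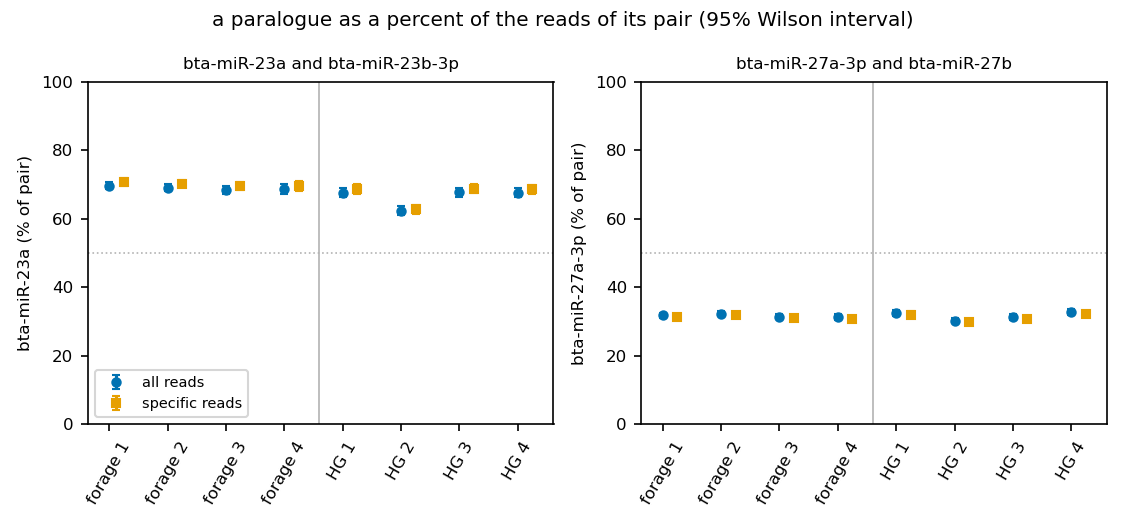
The a paralogue as a percent of the reads of its pair (y axis) in each of the 8 libraries (x axis), from all reads and from the reads specific to a paralogue, with 95% Wilson intervals. In all reads bta-miR-23a lies between 62.3% and 69.6% (62.8% to 70.7% in specific reads), above the dotted line of equal reads, and bta-miR-27a-3p between 30.3% and 32.7% (29.9% to 32.3%), below it.

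On the HG diet the balance of miR-23 was lower in bta-miR-23a in 4 of 4 cows. The ratio of bta-miR-23a to bta-miR-23b-3p reads was 2.29, 2.23, 2.17 and 2.19 in forage replicates 1 to 4, and 2.09, 1.65, 2.09 and 2.09 in HG replicates 1 to 4. The groups did not overlap, although the Wilson intervals of single libraries did outside HG replicate 2, such as those of forage replicate 4 (67.3 to 70.0%) and HG replicate 4 (66.3 to 68.8%), which are 1 cow. The log2 ratio averaged 1.15 ± 0.0334 with forage and 0.98 ± 0.168 with HG (SD, n = 4 each), a difference of −0.17 (two-sided exact sign-flip permutation test over 4 cows, p = 0.13, adjusted p = 0.275 over the 11 shares and ratios tested). With 4 cows, 0.13 is the smallest p this test can give. Without HG replicate 2 the HG mean was 1.06, a difference of −0.09. For miR-27 the log2 ratio of bta-miR-27a-3p to bta-miR-27b was −1.11 ± 0.0293 with forage and −1.11 ± 0.0762 with HG (SD, n = 4 each), with 2 of 4 cows higher (exact sign-flip permutation test, p = 1), and the difference was 0.036 without HG replicate 2.

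Reads that mapped to both paralogues of a pair were few. In the deposited tables a second count splits each read evenly over its entries, and in each of the 8 libraries the reads that division took away beyond those shared with the human homologue were equal in the a and the b form, which gives the reads that both forms share. For miR-27, if each such read was divided among 2 entries, there were 118 to 216 such reads per library, 3.30 to 4.74% of bta-miR-27a-3p and 1.43 to 2.21% of bta-miR-27b. For miR-23, if each such read was divided among 4 entries, there were 93 to 207 per library, 2.80 to 4.25% of bta-miR-23a and 4.63 to 9.43% of bta-miR-23b-3p. Both families had their lowest percent in HG replicate 2: for bta-miR-23b-3p it was 4.63% (95% Wilson interval 3.79 to 5.64%) beside 7.15 to 9.43% in the other 7 libraries, and for bta-miR-27a-3p 3.30% (2.80 to 3.88%) beside 3.75 to 4.74%. For bta-miR-23b-3p this interval lies below that of each other library, and for bta-miR-27a-3p it overlaps with some of them.

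Dividing or leaving out the shared reads left the balance of the paralogues almost as it was. In reads divided among their entries the mean ratio of bta-miR-23a to bta-miR-23b-3p was 2.28 on the forage diet and 2.02 on the HG diet, against 2.22 and 1.98 undivided, and with shared reads left out it was 2.33 and 2.06. For bta-miR-27a-3p over bta-miR-27b the divided ratio was 0.458 on the forage diet and 0.460 on the HG diet, against 0.463 and 0.465 undivided. Bta-miR-23a remained the larger of its pair and bta-miR-27b of its own in 8 of 8 libraries under each way of counting.

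Division changed the level of the members themselves far more, and unequally. Bta-miR-27b kept 99.0% ± 0.132 of its reads (SD, n = 8 libraries) and bta-miR-27a-3p 97.9% ± 0.245 (SD, n = 8). Bta-miR-23a kept 49.1% ± 0.124 (SD, n = 8) and bta-miR-23b-3p 48.0% ± 0.381 (SD, n = 8), and bta-miR-24 kept 50% in every library. Bta-miR-24-3p kept the least, 33.6% ± 0.0152 (SD, n = 8), with 33506 of its 99862 reads. The differences between the miR-27, miR-23 and miR-24-3p entries are many times the spread between libraries, whereas bta-miR-23a (48.9 to 49.3%) and bta-miR-23b-3p (47.6 to 48.8%) lay close together.

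The entries that hold the other part of these reads were only partly among those listed. Hsa-miR-23a-3p, the human homologue entry, had the same 30845 reads as bta-miR-23a, and hsa-miR-24-1-5p had the same 93 reads as bta-miR-24. Under the division among 4 entries assumed above, 84.0% ± 1.18 (SD, n = 8) of the miR-23 reads stood at bta-miR-23a, bta-miR-23b-3p and hsa-miR-23a-3p together, with 81.3% in HG replicate 2 and 84.0 to 85.1% in the other 7 libraries. Of the miR-24-3p reads 33.6% stood at bta-miR-24-3p. No further entry for these arms was listed under the names of the clusters, so the place of the rest is not shown. The deposited normalized values equal the divided reads, rounded to whole numbers and scaled by library, for 377 of 377 entries within 0.01 reads, so they carry the same loss.

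After division bta-miR-27b went from rank 12 to rank 4 among the bovine entries and bta-miR-27a-3p from 23 to 15, whereas bta-miR-24-3p moved from 7 to 12, bta-miR-23a from 24 to 26 and bta-miR-23b-3p from 41 to 47. In divided reads the order in all 8 libraries was bta-miR-27b, bta-miR-24-3p, bta-miR-27a-3p, bta-miR-23a, bta-miR-23b-3p and bta-miR-24. Bta-miR-24-3p and bta-miR-27b thus exchanged the lead: the former had 1.52 ± 0.0419 reads (SD, n = 4, forage diet) for each read of the latter before division and 0.514 ± 0.0145 (SD, n = 4) after it.

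**Figure D2:**
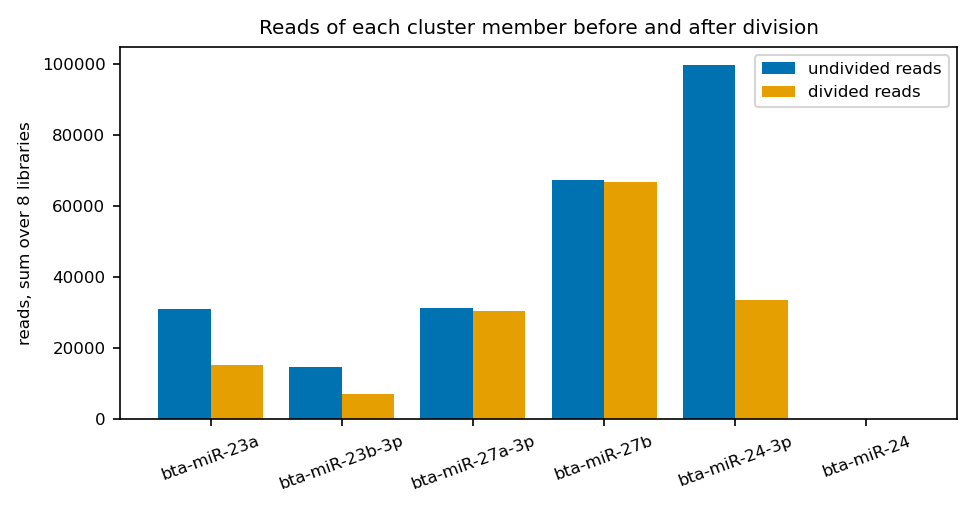
Reads of each member summed over the 8 libraries (y axis), counted in full at each entry and divided among entries. Bta-miR-27b and bta-miR-27a-3p keep 99.0% and 97.9%, bta-miR-23a and bta-miR-23b-3p keep 49.1% and 48.0%, and bta-miR-24-3p goes from 99862 to 33506 reads.

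In each further ratio between members HG replicate 2 lay beyond the range of the other 7 libraries. In the a cluster bta-miR-27a-3p and bta-miR-23a had similar numbers of reads, with 0.941 to 1.05 reads of the former for each of the latter in those 7 libraries and 1.28 in HG replicate 2 (a ratio chosen after the values had been seen). In divided reads the same ratio was 1.87 to 2.09 in the 7 libraries and 2.55 in HG replicate 2. In the b cluster bta-miR-23b-3p had far fewer reads than bta-miR-27b, with a ratio of 0.217 ± 0.00343 with forage and 0.221 ± 0.0107 with HG (SD, n = 4 each) (exact sign-flip permutation test on the log2 ratio, p = 0.625), a log2 difference of 0.023, or 0.056 without HG replicate 2. Bta-miR-24-3p, whose reads may come from either cluster, had 3.1 to 3.35 reads for each read of bta-miR-23a in the 7 libraries and 3.75 in HG replicate 2. The log2 of this ratio was 0.09 higher on the HG diet, in 4 of 4 cows (exact sign-flip permutation test, p = 0.13), and 0.033 higher without HG replicate 2. Against the b form, bta-miR-23b-3p, 4 of 4 cows had a lower ratio with HG, but cow 3 was nearly level (7.03 with forage and 7.01 with HG). The log2 ratio was 2.80 ± 0.0344 with forage and 2.72 ± 0.0725 with HG (SD, n = 4 each), or 2.75 with HG without HG replicate 2. This ratio was not among the planned ones and was not tested. Against bta-miR-27a-3p the log2 ratio of bta-miR-24-3p was 1.71 on the forage diet and 1.65 on the HG diet, lower in 3 of 4 cows (exact sign-flip permutation test, p = 0.25), a difference of −0.065, or −0.034 without HG replicate 2.

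Of the miR-24 hairpin nearly all reads came from the 3p arm. Bta-miR-24, its 5p arm, had 22, 18, 10 and 2 reads in forage replicates 1 to 4, and 4, 7, 18 and 12 in HG replicates 1 to 4. These were 0.0930% of the 5p and 3p reads together (95% Wilson interval 0.0760 to 0.114%), or 1074 reads of the 3p arm for each of the 5p arm, in reads pooled over libraries that differed from each other. The lowest percent was 0.0201% in forage replicate 4 (0.00550 to 0.0731%) and the highest 0.146% in HG replicate 3 (0.0927 to 0.231%). The 3p reads may include those of the second hairpin, mir-24-2, while the 5p entry belongs to mir-24-1. The read counts of the diets overlapped, and their number allows no statement on a difference. In the a cluster bta-miR-27a-5p, the other arm of its hairpin, had 65 reads beside the 31195 of bta-miR-27a-3p, with 4 to 21 per library, and hsa-miR-23a-5p had 10 reads in 4 libraries and did not reach the minimum.

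The question put to the diets was whether the members differed between forage and HG feeding. Bta-miR-23b-3p took 0.428%, 0.420%, 0.437% and 0.442% of the miRNA reads in forage replicates 1 to 4, and 0.461%, 0.598%, 0.448% and 0.455% in HG replicates 1 to 4. It was the only 1 of the 6 members in which every HG library lay above every forage library, which was the case for 1.33% of the 377 entries. Bta-miR-27a-3p took 0.921%, 0.938%, 0.908% and 0.917% in forage replicates 1 to 4, and 0.963%, 1.26%, 0.912% and 0.996% in HG replicates 1 to 4. Its diets overlapped, with HG replicate 3 inside the forage range. Bta-miR-27b took 1.98%, 1.97%, 1.98% and 2.02% in forage replicates 1 to 4, and 1.999%, 2.91%, 1.995% and 2.04% in HG replicates 1 to 4. In shares, all 3 were higher on the HG diet in 4 of 4 cows (exact sign-flip permutation test, p = 0.13 for each, adjusted p = 0.275), while in TMM-scaled CPM bta-miR-27a-3p and bta-miR-27b were higher in 3 of 4, and the mean differences in share were 0.0586, 0.112 and 0.248 percentage points. Without HG replicate 2 these were 0.0228, 0.0359 and 0.0252 percentage points. Relative to all reads of the library, the mean of each of the 6 members was lower on the HG diet (exact sign-flip permutation test, p = 0.75 for each). That denominator scales all entries of a library alike, by the miRNA percent of its reads. This percent was 29.3, 16.4, 17.4 and 6.67% in forage replicates 1 to 4, and 9.69, 8.62, 27.8 and 8.59% in HG replicates 1 to 4. The direction thus depends on the denominator, and the lower means are no separate result for each member.

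Bta-miR-24-3p took 3.08%, 2.91%, 3.08% and 3.01% of the miRNA reads in forage replicates 1 to 4, and 3.04%, 3.70%, 3.14% and 2.99% in HG replicates 1 to 4. Its share was higher on the HG diet in 2 of 4 cows, and its TMM-scaled CPM in 3 of 4 (exact sign-flip permutation test on the share, p = 0.5), by a mean of 0.203 percentage points, or 0.0417 without HG replicate 2. Bta-miR-23a took 0.980%, 0.936%, 0.951% and 0.969% in forage replicates 1 to 4, and 0.962%, 0.989%, 0.938% and 0.9495% in HG replicates 1 to 4. Its means on the diets were alike, with 0.959% ± 0.0196 (SD, n = 4) and 0.960% ± 0.0215 (SD, n = 4), and in 3 of 4 cows it was lower with HG (exact sign-flip permutation test, p = 1). Without HG replicate 2 the mean difference was −0.00892 percentage points.

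**Figure D3:**
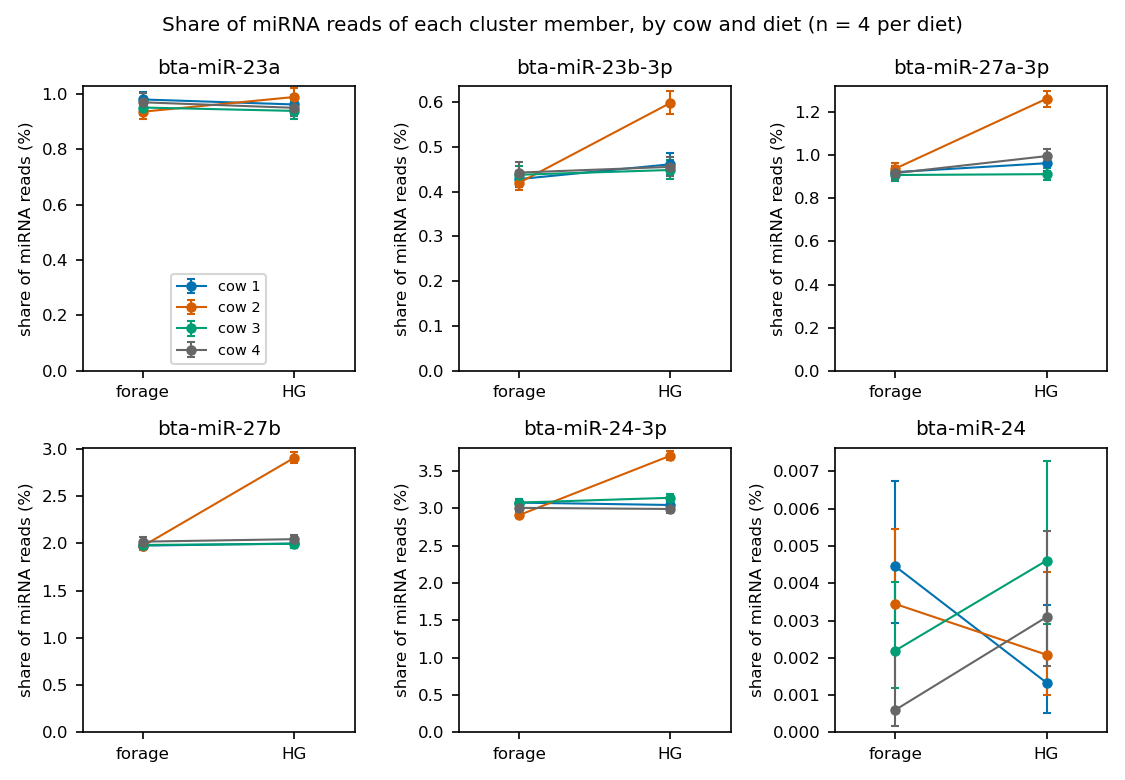
Share of miRNA reads of each member in percent (y axis, from 0) on the forage and the HG diet, with 1 line per cow and 95% Wilson intervals for the counting error. The lines of cows 1, 3 and 4 run nearly level for the 5 abundant members, and the line of cow 2 ends highest in each of them, at 2.91% for bta-miR-27b and at 0.989% for bta-miR-23a.

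In edgeR's quasi-likelihood test over all entries, with the cow as a block and Benjamini-Hochberg adjustment, 0 of the 377 entries differed between the diets at an adjusted p under 0.05 (0%), so that none of the 6 members did. At an unadjusted p under 0.05 there were 9 entries (2.39%), no member among them, and DESeq2 gave 0 and 3 entries. The log2 fold changes of HG over forage were 0.22 (SE 0.126, 95% interval −0.09 to 0.53, edgeR adjusted p = 0.788) for bta-miR-23b-3p, 0.20 (SE 0.110, −0.07 to 0.48) for bta-miR-27a-3p, 0.20 (SE 0.138, −0.14 to 0.54) for bta-miR-27b and 0.14 (SE 0.102, −0.12 to 0.39) for bta-miR-24-3p. That of bta-miR-23a was 0.05 (SE 0.0659, −0.11 to 0.21), and that of bta-miR-24 was 0.17 with an interval of −1.44 to 1.77. The median of the 6 members was 0.18, beside 0.03 over all 377 entries, of which 55.7% were above 0. Without cow 2 the changes were −0.02 for bta-miR-23a, 0.06 for bta-miR-23b-3p and bta-miR-27a-3p, 0.02 for bta-miR-27b and 0.00 for bta-miR-24-3p, so that the changes of the abundant members depended on this cow.

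**Figure D4:**
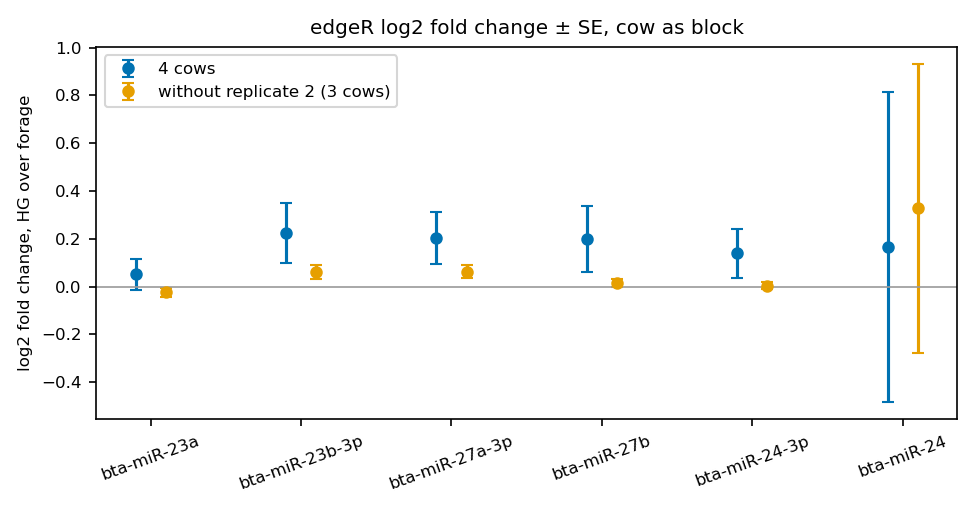
Log2 fold change of HG over forage (y axis, edgeR with the cow as a block, bars ± SE) of each member with 4 cows and without replicate 2. With 4 cows the abundant members lie between 0.05 and 0.22, and without replicate 2 between −0.02 and 0.06.

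HG replicate 2 held the highest share of 5 of the 6 members, as it did for 26.8% of the 377 entries. Their summed share was 9.46% there and 7.18 to 7.44% in the other 7 libraries. The excess was unequal: relative to the mean of the other 7 libraries, bta-miR-27b was 1.45-fold higher in HG replicate 2, bta-miR-23b-3p and bta-miR-27a-3p were 1.35-fold higher, bta-miR-24-3p was 1.22-fold higher and bta-miR-23a was 1.04-fold higher. Among the 7 libraries themselves the coefficient of variation of the share was 1.28% for bta-miR-27b, 1.69% for bta-miR-23a, 2.45% for bta-miR-24-3p, 3.31% for bta-miR-23b-3p and 3.44% for bta-miR-27a-3p, but 53.9% for bta-miR-24 with its few reads. The lowest percent of shared reads, the lowest ratio of bta-miR-23a to bta-miR-23b-3p and the lowest ratio of bta-miR-27a-3p to bta-miR-27b (0.434, beside 0.454 to 0.487) were in the same library.

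Markers of other cell types moved in HG replicate 2 as well. Erythrocyte miRNAs (miR-451, miR-144 and miR-486, 3 of 3 found) took 14.98% of the miRNA reads there and 19.8 to 20.6% in the other 7 libraries, with all 3 at their lowest. Leukocyte miRNAs (5 of 5 found) took 1.72% there and 2.16 to 2.22% elsewhere, with 4 at their lowest and bta-miR-142-3p at its highest. Smooth muscle and stroma miRNAs (5 of 5 found) took 8.97% and 6.49 to 6.999%, with 3 at their highest.

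Epithelial miRNAs (6 of 7 found) took 2.80% of the miRNA reads of HG replicate 2 and 2.04 to 2.13% elsewhere, with 4 at their highest and 1 at its lowest. The endothelial pair bta-miR-126-3p and bta-miR-126-5p took 0.767% and 0.491 to 0.549%, both at their highest. These are shares of bulk RNA, in which fewer cells of a type and less RNA per cell cannot be told apart, and their part in the higher shares of the members was not tested.

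The entries whose pattern over libraries was most like that of a member were found as a description, from log2 CPM over 8 libraries that share the outlying HG replicate 2. For bta-miR-27b the highest Pearson correlations among 216 candidates were those of bta-miR-378 (r = 0.997), bta-miR-30e-5p (0.997) and bta-miR-10174-3p (0.994). For bta-miR-24-3p they were bta-miR-200a (0.992), bta-miR-30a-5p (0.990) and bta-miR-30e-5p (0.987), and for bta-miR-23a bta-miR-199a-5p (0.992), bta-miR-31 (0.990) and bta-miR-200a (0.984). Among the 5 abundant members themselves the correlations were 0.949 to 0.988. Without HG replicate 2, over 7 libraries, none of these entries was among the 3 nearest of its member, and the correlations among the members ranged from −0.50 to 0.72.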

How the data were processed

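Small RNA of 8 rumen fluid libraries was analysed. The authors trimmed adapters with Skewer, discarded short and low-quality reads and assigned reads with sRNAbench (genome mode, Bowtie, UMD3.1) to bovine and human miRBase entries. The deposited read counts give a read in full at each entry it maps to, and the deposited expected counts divide it among its entries. Totals of all reads and of miRNA reads were recovered from the RPM values and from a score (RPM of miRNA reads) deposited by the authors, and the deposited normalized signal was compared with the expected counts. No listed count was below 2 reads, so smaller counts are listed as absent. Entries were kept where any 1 library had 10 reads or more. Diet was tested with edgeR 4.0.16 in R 4.3.3 (TMM, quasi-likelihood, terms for cow and diet, as in the study's DESeq2 design). DESeq2 1.42.0 was an alternative. Shares and log2 ratios were compared with exact sign-flip permutation tests over cows, two-sided, with Benjamini-Hochberg adjustment over 11 tests. In libraries simulated from these counts for the diet comparison (377 entries), edgeR called 18 of 20 entries changed by 1 on the log2 scale, 20 of 20 changed by 2 and 0 of 337 unchanged ones. The simulated libraries had a single fixed dispersion, no differences between cows and no outlying library. Changes were placed only in entries above a minimum mean count, so these rates do not give the power in the real libraries. Deviations of same-numbered libraries correlated at −0.08 to 0.06, so the pairing rests on the labels and the design. Fold changes and likeness are named for the 6 members and for the 3 nearest entries of bta-miR-23a, bta-miR-24-3p and bta-miR-27b. The members and lists were chosen with earlier results of these data known, and the shares and ratios without HG replicate 2 alone and the ratios of paralogue-specific reads were added after seeing the data.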

Additional observations from a re-analysis of the deposited data

Results flagged for a closer look

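Within a diet, 5 of 34 groups of 4 values held a library whose distance to its nearest neighbour exceeded Dixon's 95% critical value. For independent groups chance alone gives about 1 in 20, but these groups share libraries and reads, so this rate does not apply to them. The percent that bta-miR-24 kept was 50% in every library and could not be flagged. HG replicate 2 was the outlying library in 4 of the 5 flagged groups. Its share of bta-miR-23b-3p was 0.598%, beside 0.448 to 0.461% in the other HG libraries, and its share of bta-miR-27b was 2.91%, beside 1.995 to 2.04%. Its log2 ratio of bta-miR-23a to bta-miR-23b-3p was 0.73, beside 1.06 to 1.07, and bta-miR-27b kept 99.3% of its reads after division there, beside 98.9 to 99.0%. The last group was the percent of reads that bta-miR-24-3p kept on the forage diet, which was 33.53% in forage replicate 1 and 33.54 to 33.55% in the other 3 forage libraries.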

How the results depend on the processing

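For the diet effect, the number of entries called by edgeR was 0 under all alternatives except leaving out replicates, where it ranged from 0 to 2. The 2 calls came without replicate 2 and were no members. Without the replicate block it was also 0. The log2 fold change of bta-miR-23a was −0.024 to 0.073 when replicates were left out, negative without replicate 2, and −0.021 with no replicate block and without HG replicate 2. That of bta-miR-24 was −0.31 to 0.76 when replicates were left out, negative without replicate 3 (−0.19) and 4. Relative to all reads of the library, the HG minus forage share was negative for all members, in percentage points −0.0374 for bta-miR-23a, −0.00999 for bta-miR-23b-3p, −0.0254 for bta-miR-27a-3p, −0.0520 for bta-miR-27b, −0.0925 for bta-miR-24-3p and −0.000109 for bta-miR-24. This denominator scales all entries of a library alike, by its miRNA percent, so these signs are not separate results. The share of bta-miR-23a differed by −0.00892 without HG replicate 2 alone. Leaving out a replicate, or HG replicate 2 alone, gave differences of −0.0167 to 0.00763 for bta-miR-23a, −0.000689 to 0.00118 for bta-miR-24, −0.029 to 0.048 for the log2 ratio of bta-miR-27a-3p to bta-miR-27b and −9.57e-05 to 0.056 for that of bta-miR-23b-3p to bta-miR-27b. In divided reads the mean log2 ratio of bta-miR-24-3p to bta-miR-23a was 1.15 in place of 1.70, that of bta-miR-24-3p to bta-miR-27a-3p was 0.13 in place of 1.68 and that of bta-miR-23b-3p to bta-miR-27b was −3.24 in place of −2.19, with the same values from the deposited normalized values, since division takes unequal parts of the members. The other 210 of 234 alternative values kept their direction and their side of the threshold, or moved by less than the spread between libraries. With 4 cows the exact test cannot pass 0.05, and with 3 it can still less, so these results say nothing about the stability of a call. The 93 reads of bta-miR-24 limit any comparison of it.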
